A study of Mus musculus with 6 samples.

Results

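Potassium channel subunits were taken as the protein-coding genes whose symbol begins with Kcn, a prefix that covers pore-forming and auxiliary subunits of voltage-gated, calcium-activated, inward rectifier and two-pore channels. Among 48709 gene rows, 94 carried such a symbol, and the 81 with at least 10 counts in 3 or more of the 6 libraries are described here. Bulk RNA sequencing covered cerebellum at 40 weeks of age, all on the C57BL/6J strain, with 3 samples of wild-type and 3 of SCA7 140Q/5Q knock-in mice. The latter carry an Atxn7 allele with 140 glutamine codons beside one with 5. SCA7 is spinocerebellar ataxia type 7, the disease of the polyglutamine expansion in ataxin-7. Cerebellum holds many cell types, so fewer cells of a type and less RNA per cell cannot be told apart in any value below. The labels do not state that the samples of a group came from separate animals, so the p-values measure the spread between samples.

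Potassium channels set the resting potential of neurons and end each action potential. Several pore-forming subunits assemble around one conduction pathway, and auxiliary subunits change gating and traffic to the membrane. Purkinje cells, the output neurons of the cerebellar cortex, fire spontaneously at high rates. They depend on fast Kv3 channels, on calcium-activated BK and SK channels and on Kv1 channels in the axon and dendrites. Granule neurons carry a Kv4 current with its KChIP partners, and astrocytes and Bergmann glia clear extracellular potassium through Kir4.1.

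In knock-in cerebellum 7 potassium channel genes were lower and 0 were higher. The 7 were Kcnma1, the pore of the BK channel, Kcnk13, a two-pore channel, Kcnj10, the glial inward rectifier Kir4.1, Kcna6, a Kv1 pore, its auxiliary partner Kcnab1, and the Kv4 partners Kcnip4 and Kcnip1. Their losses lay between 21.7% for Kcnab1 and 41.5% for Kcnma1. The call rests on edgeR's quasi-likelihood test with Benjamini-Hochberg adjustment over all 16699 genes tested, at an adjusted p at or under 0.05, and on 80 members, since Kcnn4 did not pass the test's filter on low counts. Across all genes tested 1.28% were called lower and 0.629% higher, or 1.9% in either direction, against 8.75% of the members lower. With an unadjusted p under 0.05, 20 members were lower and 6 higher, beside 8.26% and 9.81% of all genes. DESeq2 called 13 lower and 2 higher, beside 3.31% and 2.63% of all genes. Limma-voom called 7 lower and 0 higher, beside 1.2% and 0.467%. Scaling by library size alone left 6 lower members and 1 higher, with Kcng4 and Kcnb2 gained and Kcnip1 and Kcnab1 lost, while over all genes that scaling turned the split of calls from 213 lower and 105 higher to 190 lower and 323 higher. The median log2 fold change, always knock-in minus wild type, of the 80 members was -0.08 and that of all genes 0.007.

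**Figure D1:**
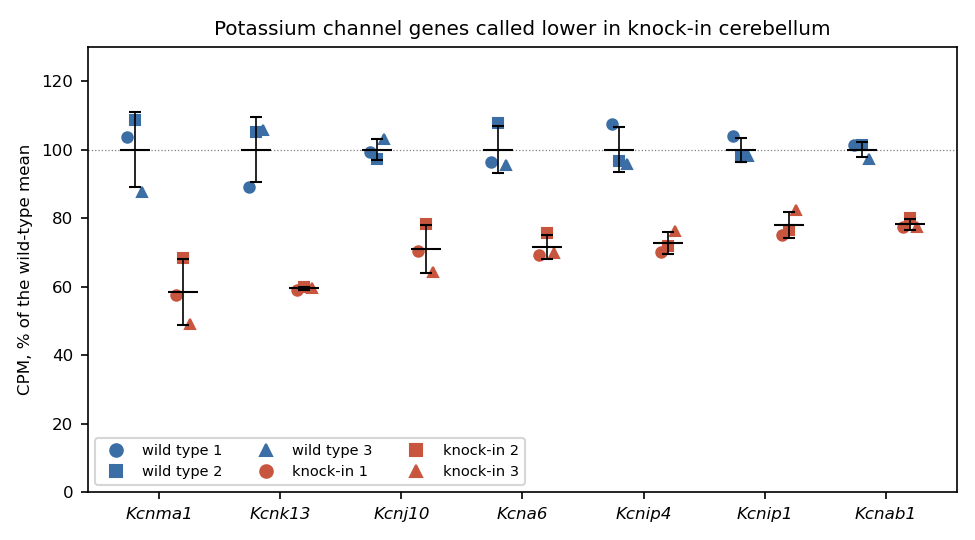
CPM (counts scaled to library size) of the 7 called potassium channel genes in each library, as a percentage of the wild-type mean of the gene. Points are libraries and bars mark the group mean ± SD (n = 3), and in each gene all 3 knock-in libraries lie below all 3 wild-type libraries.

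The call count depended on single libraries. Leaving out wild-type replicate 1, 2 or 3 left 1, 0 or 1 called members, beside 0.276%, 0.522% and 0.458% of all genes called in the same fits. Leaving out knock-in replicate 1, 2 or 3 left 0, 15 or 0, beside 0.23%, 5.04% and 0.43% of all genes. The 1 gene was Kcnk13 without wild-type replicate 1 (adjusted p 0.0323) and Kcnma1 without wild-type replicate 3 (adjusted p 0.0284). The 7 genes kept their direction in each of these fits. In 18 members every knock-in library was below every wild-type library, and in 6 every one was above. These are 22.5% and 7.5% of the members, beside 11.5% and 12.3% of all genes (23.8% in either direction).

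The 250 bases before the transcription start are shown for Kcnk13, Kcnj10 and Kcna6, 3 genes that were lower together, so that their upstream letters can be compared. They are the called genes with a single start in the RefSeq table and a window outside the gene's own GENCODE exons. The window of Kcnma1 lies in such an exon and is not shown. RefSeq promoters (GRCm38.p6) matched 57 of the 81 members. They are written 5′ to 3′ on the strand of the gene, Kcnk13 at chr12:99964249-99964498 (plus strand), Kcnj10 at chr1:172340960-172341209 (plus) and Kcna6 at chr6:126740675-126740924 (minus). Capitals mark any match, on either strand, to GGGCGG (bound by Sp1), to CCAAT (bound by NF-Y), to TATAAA (a core promoter element), to AGGTCA (a nuclear receptor motif) or to TGACGTCA (a cyclic AMP response element), and the motifs in capitals can overlap.
Kcnk13: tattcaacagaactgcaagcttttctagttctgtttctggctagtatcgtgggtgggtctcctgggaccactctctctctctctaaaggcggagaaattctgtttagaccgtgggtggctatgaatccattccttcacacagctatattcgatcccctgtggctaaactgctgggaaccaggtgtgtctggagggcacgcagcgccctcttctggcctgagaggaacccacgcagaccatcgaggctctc
Kcnj10: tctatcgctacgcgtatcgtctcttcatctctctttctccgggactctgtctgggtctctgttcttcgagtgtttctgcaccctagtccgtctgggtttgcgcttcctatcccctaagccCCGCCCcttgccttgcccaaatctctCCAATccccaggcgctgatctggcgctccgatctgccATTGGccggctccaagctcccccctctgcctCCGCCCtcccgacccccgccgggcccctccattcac
Kcna6: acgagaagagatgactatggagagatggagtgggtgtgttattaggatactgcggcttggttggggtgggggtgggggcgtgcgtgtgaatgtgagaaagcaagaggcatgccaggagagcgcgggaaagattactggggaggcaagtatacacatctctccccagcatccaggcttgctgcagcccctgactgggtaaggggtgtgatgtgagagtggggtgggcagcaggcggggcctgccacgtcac

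GC content was 52.8% in the Kcnk13 window, 62.0% for Kcnj10 and 58.8% for Kcna6, with 8, 17 and 8 CpG dinucleotides. The median GC content over all 32851 windows of that length was 52.4%. The Kcnj10 window held 2 matches to GGGCGG and 2 to CCAAT, and the Kcnk13 and Kcna6 windows none of the 5 motifs. Of all windows 32.7% held GGGCGG, 33.8% CCAAT, 14% AGGTCA, 12.4% TATAAA and 1.55% TGACGTCA. The shares over the 81 windows of the matched members were 45.7%, 29.6%, 6.17%, 3.7% and 0%. The 3 windows had no motif in common, and the data hold no measurement of binding there.

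Most of the called members were abundant. Of 41 members with a mean of at least 10 CPM, 6 were called lower, or 14.6%, against 1.77% of all genes at that level, and in 15 of them, or 36.6%, the groups did not overlap with knock-in lower, against 14.2% of all genes at that level. Of the 39 tested members under 10 CPM, 1 was called lower, Kcnk13, or 2.56%, against 0.483% of all genes there. The median log2 fold change was -0.16 in the abundant members and 0.07 in the others, beside -0.01 and 0.07 for all genes at those levels. Together the 81 members took 0.565%, 0.609% and 0.579% of all counts in the wild-type libraries. In the knock-in libraries they took 0.502%, 0.54% and 0.492%, so the groups did not overlap in this share.

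**Figure D2:**
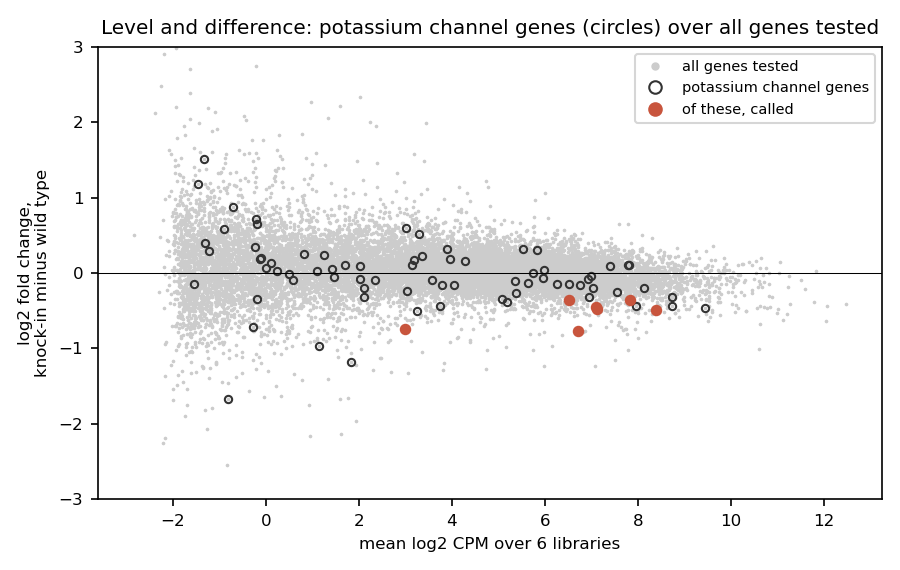
Mean log2 CPM over the 6 libraries (x axis) against the log2 fold change of knock-in minus wild type (y axis) for all 16699 genes tested (grey), the 80 tested potassium channel genes (circles) and the 7 called ones (red). Genes beyond 3 log2 units, 14 in all, are not drawn, and 6 of the 7 red points lie at a mean of at least 10 CPM.

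Library totals ran from 34630391 to 49127673 counts. Atxn7 itself had a log2 fold change of -0.12 (edgeR adjusted p 0.52), and since a gene count pools both alleles it does not check the genotype labels. The tissue label was checked against marker lists: the granule neuron gene Gabra6 had at least 706 CPM and the Purkinje cell gene Car8 at least 1806 CPM in each library. Of 10 Purkinje cell markers 6 were lower and 0 higher, with summed levels of 13734 to 15544 CPM in wild type and 9058 to 10842 CPM in knock-in. Of 9 markers of Bergmann glia and astrocytes 4 were lower (Slc1a2, Aqp4, Gja1 and A2m), at 4524 to 4679 and 3342 to 3867 CPM. No marker of these lists was at 0 in any library. Granule neurons had 1 of 9 lower (Cbln3, 5537 to 6128 and 4591 to 5232 CPM), and interneurons 0 of 8 called (1458 to 1593 and 1275 to 1349 CPM). Oligodendrocytes had 1 of 6 lower (7003 to 9268 and 7083 to 7389.9 CPM), and their precursors 1 of 4 higher (Olig1, 88.9 to 119 and 136 to 149 CPM). None was called of 5 endothelial and pericyte markers (297 to 344 and 246 to 285 CPM), of 4 of deep nuclei and unipolar brush cells (116 to 149.6 and 90.5 to 177 CPM) or of 3 tested forebrain markers (9.59 to 11 and 10.3 to 10.5 CPM for 5 listed). Their part in the potassium channel differences was not tested. Across the genes tested, which are not independent, the Spearman rho of the log2 fold change was 0.32 against GC content and -0.22 against exon length. With offsets for both in the fit, 14 members were lower and 2 higher, the 7 among them, beside 2.98% and 1.38% of all genes (727 called in place of 318).

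The large-conductance BK channel opens to voltage and intracellular calcium together, and its pore is encoded by Kcnma1 (ENSMUSG00000063142, chromosome 14, 23289431 to 24014491, minus strand, mm10). Kcnma1 had 144, 151 and 122 CPM across wild-type libraries and 80.2, 95.3 and 68.5 CPM across knock-in libraries. The groups did not overlap, and knock-in replicate 3 was the lowest of the 6. Kcnma1 fell by 0.77 ± 0.12 on the log2 scale (SE, 3 against 3 samples, edgeR adjusted p 0.0178). The gene lies 9.18 Mb from Atxn7 on the same chromosome, and the part of this position in the difference was not tested. The auxiliary beta subunit genes were not called. Kcnmb4, the neuronal beta subunit, had wild-type values of 46.2, 60.8 and 55.4 CPM against knock-in values of 45.9, 55.8 and 61.1 CPM, a log2 fold change of 0.0039 ± 0.13, and its sign changed between settings. Kcnmb1 and Kcnmb2 averaged 1.16 and 1.38 CPM over the 6 libraries and Kcnmb3 had too few counts.

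Levels are compared between genes as CPM per kilobase of merged exon length. On that scale the level of Kcnma1 relative to Kcnmb4 was 0.612, 0.486 and 0.431 for wild-type and 0.342, 0.335 and 0.219 for knock-in libraries. This ratio was therefore lower in each knock-in library, at a mean of 0.299 ± 0.0688 against 0.509 ± 0.0927 (SD, n = 3, two-sided exact permutation p 0.1, adjusted 0.15). The smallest p that 3 against 3 samples allow is 0.1. It was 1 of 6 such ratios tested, chosen after the values were seen. Kcnma1 has 16976 exon bases and Kcnmb4 3324. Gene levels relative to their means over the libraries were correlated with exon length. Spearman rho was 0.09, 0.28 and -0.01 for wild-type and -0.08, 0.14 and -0.43 for knock-in libraries. The ratios were not adjusted for this trend, and its part in them was not tested.

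Kv1 channels open at low voltages and sit at axon initial segments, juxtaparanodes and basket cell terminals. Kcna6, which encodes Kv1.6 (ENSMUSG00000038077, chromosome 6, 126708329 to 126740674, minus strand), had 158, 177 and 157 CPM across wild-type libraries and 114, 124 and 115 CPM across knock-in libraries. It fell by 0.48 ± 0.08 on the log2 scale (edgeR adjusted p 0.0205), and the groups did not overlap. Kcna2, the most abundant Kv1 pore per exon length, encodes Kv1.2 and had wild-type values of 522, 509 and 457 CPM against knock-in values of 383, 402 and 317 CPM. Its groups did not overlap either, but its log2 fold change of -0.43 ± 0.10 had an edgeR adjusted p of 0.0586, with 0.00302 in DESeq2. Kcna1, which encodes Kv1.1 and is the gene of episodic ataxia type 1 in people, had 131, 155 and 139.7 CPM across wild-type libraries and 124, 143 and 104 CPM across knock-in libraries (log2 fold change -0.20 ± 0.11, adjusted p 0.391), and its groups overlapped. The ratio of Kcna6 to Kcna1 per kilobase was 0.971, 0.922 and 0.904 for wild-type and 0.739, 0.7 and 0.884 for knock-in libraries (exact permutation p 0.1, adjusted 0.15). Kcna3, Kcna4 and Kcna5 averaged between 0.901 and 4.29 CPM. None of these 3 was called.

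Cytoplasmic Kv beta subunits bind Kv1 pores, and some of them speed the inactivation of some of these pores. Kcnab1, which encodes Kv beta 1 (ENSMUSG00000027827, chromosome 3, 65109384 to 65378223, plus strand), had wild-type values of 261, 261 and 251 CPM against knock-in values of 199, 206 and 199 CPM. The spread within each group was small, and the gene fell by 0.35 ± 0.07 on the log2 scale (edgeR adjusted p 0.0312). Kcnab2 had 175, 233 and 234 CPM across wild-type libraries and 239, 216 and 238 CPM across knock-in libraries, with wild-type replicate 1 the lowest of the 6, and a log2 fold change of 0.11 ± 0.11. Kcnab3 had wild-type values of 46.4, 49.7 and 58.8 CPM against knock-in values of 68.8, 57.2 and 65.6 CPM (log2 fold change 0.31 ± 0.11, adjusted p 0.178). Kcnab1 relative to Kcnab2 per kilobase was 0.966, 0.725 and 0.695 for wild-type and 0.541, 0.62 and 0.543 for knock-in libraries, so that each knock-in library lay below each wild-type one (exact permutation p 0.1, adjusted 0.15). The summed level of the 3 beta subunits overlapped between the groups, at 78, 89.5 and 91.7 for wild-type and 90.03, 82.6 and 88.8 for knock-in libraries in CPM per kilobase.

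Kv3 channels open and close fast enough for high firing rates, and had the highest mean summed level of all subfamilies in both groups. Kcnc1, which encodes Kv3.1, had 435, 535 and 474 CPM across wild-type libraries and 356, 435 and 363 CPM across knock-in libraries (log2 fold change -0.32 ± 0.10, adjusted p 0.15). Kcnc4 had a log2 fold change of -0.06 ± 0.08. In CPM per kilobase the summed Kv3 level was 184, 238 and 206 for wild-type and 148, 180.4 and 152 for knock-in libraries.

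Kv2 pores carry a delayed rectifier current. Kcnb2, which encodes Kv2.2, had wild-type values of 5.55, 7.75 and 6.48 CPM against knock-in values of 11, 11 and 7.88 CPM. The log2 fold change of Kcnb2 was 0.60 ± 0.17 with an edgeR adjusted p of 0.109 and 0.0306 in DESeq2. Silent subunits form no channel of their own and modify Kv2 pores. Kcng4, the silent subunit Kv6.4, was among the most abundant members per exon length, at 66.2 CPM per kilobase. It had 265, 326 and 279.5 CPM across wild-type libraries and 196, 229 and 218 CPM across knock-in libraries, and no library of one group reached the other. Its log2 fold change of -0.44 ± 0.10 lay just outside the threshold, with an edgeR adjusted p of 0.0503 and 0.00181 in DESeq2. Kcns2, the silent subunit Kv9.2, had wild-type values of 16.2, 15.8 and 14.8 CPM against knock-in values of 11, 11.2 and 12.3 CPM (log2 fold change -0.44 ± 0.10, adjusted p 0.0605, 0.00787 in DESeq2). The remaining silent subunits, Kcnf1, Kcng1, Kcng2, Kcns1, Kcns3, Kcnv1 and Kcnv2, averaged between 0.362 and 2.73 CPM. None of them was called, and of these Kcng1 was higher and Kcnv2 lower in knock-in without overlap.

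**Figure D3:**
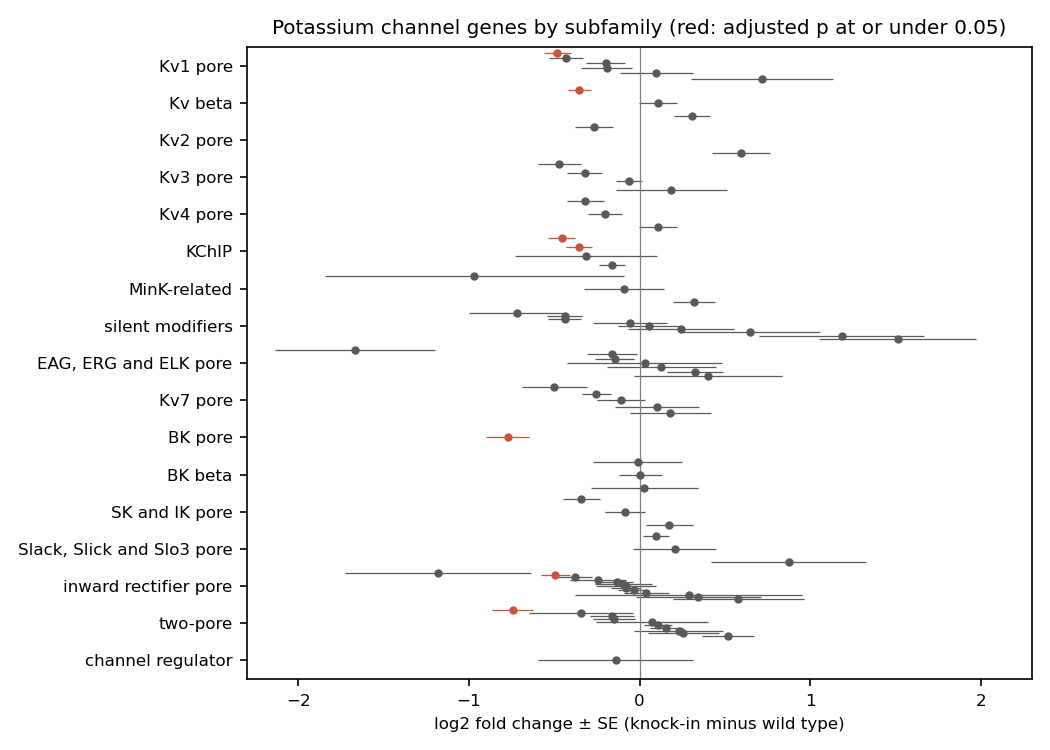
Log2 fold change of knock-in minus wild type with its standard error (x axis) for the 80 tested potassium channel genes, with 1 point per gene, in rows by subfamily and ordered by value within a row. The 7 genes called at an adjusted p at or under 0.05 are red and all lie left of 0.

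Kv4 channels carry the transient current of dendrites and of granule neurons, and KChIP subunits are their calcium-binding partners. All 4 KChIP genes had log2 fold changes below 0, with a median of -0.34, and 2 of them were called. Kcnip4 (ENSMUSG00000029088, chromosome 5, 48389502 to 49524907, minus strand), the most abundant of them, had 172, 155 and 153 CPM across wild-type libraries and 113, 115 and 122 CPM across knock-in libraries and fell by 0.46 ± 0.08 on the log2 scale (edgeR adjusted p 0.0221). Kcnip1 (ENSMUSG00000053519, chromosome 11, 33629339 to 33993152, minus strand) had wild-type values of 109, 102 and 103 CPM against knock-in values of 78.6, 80.1 and 86.3 CPM and fell by 0.36 ± 0.08 (adjusted p 0.0454). In both genes the knock-in values were within a narrow band below all wild-type values. Kcnip3, which encodes the calcium sensor DREAM as well as KChIP3, had 115, 115 and 114 CPM across wild-type libraries and 98.8, 111 and 98.3 CPM across knock-in libraries (log2 fold change -0.16 ± 0.08, adjusted p 0.304). Kcnip2 varied within both groups, from 1.86 to 7.71 CPM over the 6 libraries.

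The Kv4 pores themselves were not called. Kcnd2, which encodes Kv4.2, had wild-type values of 301, 329.7 and 283 CPM against knock-in values of 249.7, 301 and 244 CPM (log2 fold change -0.20 ± 0.10, adjusted p 0.308). Kcnd3, which encodes Kv4.3 and is mutated in spinocerebellar ataxia type 19 in people, had 147, 142 and 126 CPM across wild-type libraries and 107, 129 and 96.5 CPM across knock-in libraries (log2 fold change -0.32 ± 0.11, adjusted p 0.173). For both pores the value of knock-in replicate 2 was inside the span of the wild-type samples. Kcnip4 relative to Kcnd2 per kilobase was 0.813, 0.667 and 0.769 for wild-type and 0.64, 0.544 and 0.713 for knock-in libraries, with overlapping groups (exact permutation p 0.2, adjusted 0.2). In CPM per kilobase the summed KChIP level was 98.4, 93.9 and 92.5 for wild-type and 73.2, 76.4 and 76.9 for knock-in libraries, and the summed Kv4 level was 75.3, 80.4 and 69.8 for wild-type and 61.5, 73.5 and 59.1 for knock-in libraries.

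Kv7 channels carry the M-current that damps repetitive firing, and 0 of their 5 genes were called. Kcnq3, one of the neuronal M-current subunits, had wild-type values of 43.6, 48.3 and 37.8 CPM against knock-in values of 45.8, 42.8 and 31.4 CPM (log2 fold change -0.11 ± 0.14), and its groups overlapped. None of the 7 EAG, ERG and ELK genes was called. Kcnh1, the most abundant of them, had 81.8, 84.1 and 77.5 CPM across wild-type libraries and 69, 88 and 62.7 CPM across knock-in libraries (log2 fold change -0.15 ± 0.12), and Kcnh2, the ERG channel of cardiac repolarization, had wild-type values of 29.2, 47.2 and 49.9 CPM against knock-in values of 54.3, 49.8 and 53.8 CPM (log2 fold change 0.32 ± 0.17). Kcnh3 was called by DESeq2 and not by edgeR (adjusted p 0.0377, edgeR 0.106) at 0.999 ± 0.515 CPM in wild type and 0.307 ± 0.104 CPM in knock-in (SD, n = 3). Its 160 counts in all are uncertain, because it overlaps Mcrs1 on the opposite strand, which had 11881 counts, and the counting's strand setting is unknown here. Of the MinK-related subunits Kcne1l, now also called Kcne5, had 11.8, 15 and 13.3 CPM across wild-type libraries and 15, 16.2 and 18.6 CPM across knock-in libraries (log2 fold change 0.32 ± 0.12, adjusted p 0.217).

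SK channels open to calcium through bound calmodulin and pace Purkinje cell firing. Kcnn2, the SK2 channel of these cells and the most abundant SK gene, had wild-type values of 38.3, 39.8 and 36.5 CPM against knock-in values of 26.4, 34.9 and 29 CPM. The groups did not overlap, and the log2 fold change of -0.34 ± 0.11 had an adjusted p of 0.14. Kcnn1 and Kcnn3 had log2 fold changes of 0.17 ± 0.14 and -0.09 ± 0.12. Of the sodium-activated channels, Kcnt1, also called Slack, had 159, 159 and 172 CPM across wild-type libraries and 168, 186 and 171 CPM across knock-in libraries (log2 fold change 0.10 ± 0.08). No gene of these subfamilies was called.

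Inward rectifiers pass current near rest. Kcnj10, which encodes Kir4.1 of astrocytes and Bergmann glia (ENSMUSG00000044708, chromosome 1, 172341210 to 172374085, plus strand), was the most abundant of 13 at 63.3 CPM per kilobase. It had wild-type values of 398, 389.9 and 414 CPM against knock-in values of 282, 314 and 257 CPM. The wild-type values were tight and all above the knock-in values, and the gene fell by 0.49 ± 0.09 on the log2 scale (edgeR adjusted p 0.0222). Kcnj16, which encodes Kir5.1 and assembles with Kir4.1, had 43.8, 42.6 and 38.9 CPM across wild-type libraries and 32.3, 35.7 and 28.2 CPM across knock-in libraries (log2 fold change -0.38 ± 0.10, adjusted p 0.0929, 0.0227 in DESeq2). The ratio of Kcnj10 to Kcnj16 per kilobase was 6.62, 6.66 and 7.74 for wild-type and 6.35, 6.40 and 6.64 for knock-in libraries, with overlapping groups (exact permutation p 0.2, adjusted 0.2). In the same libraries the glial markers Aqp4 and Slc1a2, a water channel and a glutamate transporter, fell by 0.54 and 0.63 on the log2 scale. Gfap and Hopx had log2 fold changes of -0.19 ± 0.12 and -0.14 ± 0.09 and were not called.

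The G protein-gated inward rectifiers, which neurons open through GABA-B and other receptors, were not called. Kcnj3, which encodes GIRK1, had wild-type values of 127, 138 and 124 CPM against knock-in values of 127, 139 and 113 CPM (log2 fold change -0.03 ± 0.09). Kcnj9, which encodes GIRK3, had 122, 131 and 124 CPM across wild-type libraries and 107, 130.4 and 119 CPM across knock-in libraries (log2 fold change -0.08 ± 0.09), and Kcnj6, which encodes GIRK2, had a log2 fold change of -0.24 ± 0.16. The ATP-sensitive pore gene Kcnj11 had one of -0.13 ± 0.10, and Kcnj8, its vascular counterpart, one of -0.10 ± 0.17. Kcnj12, which encodes Kir2.2, had wild-type values of 52.8, 70.2 and 66.6 CPM against knock-in values of 58.5, 76.5 and 59.8 CPM (log2 fold change 0.04 ± 0.13). None of these 6 genes was called, and in each of them the groups overlapped.

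Two-pore channels carry background current. Kcnk13, which encodes THIK-1 and is known from microglia (ENSMUSG00000045404, chromosome 12, 99964499 to 100062682, plus strand), had 9.14, 10.8 and 10.8 CPM across wild-type libraries and 6.06, 6.15 and 6.13 CPM across knock-in libraries. The 3 knock-in values were nearly equal and below all wild-type values, and Kcnk13 fell by 0.75 ± 0.12 on the log2 scale (edgeR adjusted p 0.0178). Beside it, 0 of 5 microglia markers were called, with summed levels of 110.0 to 126 CPM in wild type and 103 to 118 CPM in knock-in and none at 0. One of the 5, the microglial chemokine receptor gene Cx3cr1, was lower in every knock-in library, at wild-type values of 31.2, 30.3 and 32.5 CPM against knock-in values of 26.4, 25.5 and 23.6 CPM (log2 fold change -0.32 ± 0.09, edgeR adjusted p 0.0938, 0.0321 in DESeq2), while the groups overlapped in the other four. The part of microglia in the Kcnk13 difference was not tested. The most abundant two-pore gene, Kcnk1, which encodes TWIK-1, had 202, 219 and 226 CPM across wild-type libraries and 213, 249 and 236 CPM across knock-in libraries (log2 fold change 0.11 ± 0.08). Kcnk3, which encodes TASK-1, had a log2 fold change of -0.15 ± 0.12. Kcnk9, which encodes TASK-3 of granule neurons, had wild-type values of 7.15, 8.90 and 8.78 CPM against knock-in values of 14.4, 10.9 and 10.2 CPM, and knock-in replicate 1 was the highest. Its log2 fold change of 0.52 ± 0.15 had an adjusted p of 0.121 (0.0424 in DESeq2).

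**Figure D4:**
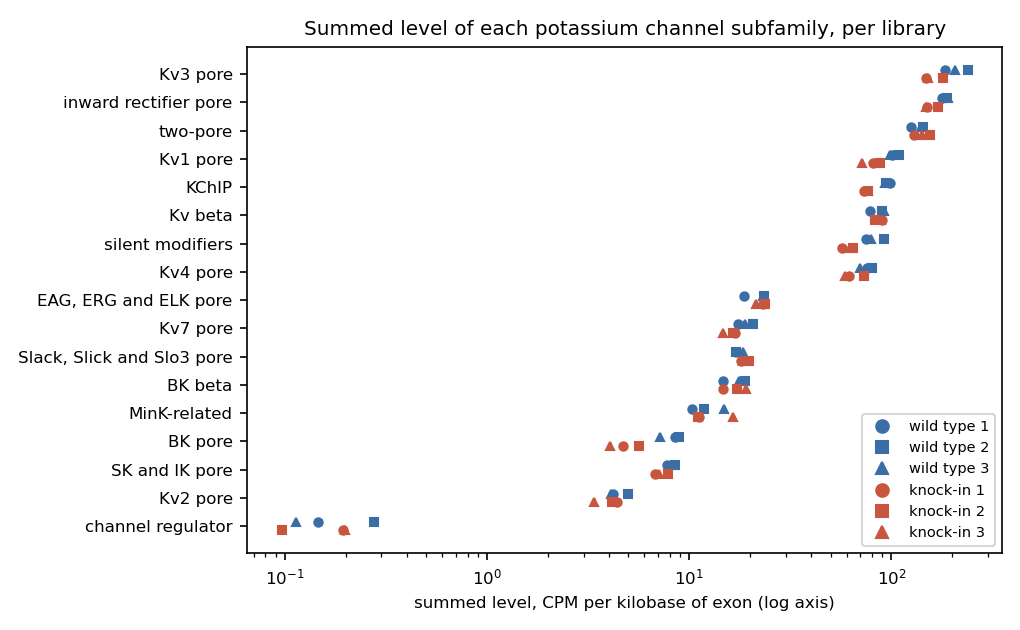
Summed level of the tested members of each subfamily in CPM per kilobase of exon (log axis), with 1 point per library. Wild type and knock-in are separate for the Kv3, inward rectifier, Kv1, KChIP, silent, Kv7 and BK pore genes, with knock-in lower, and overlap for the other 10 groups.

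Levels spanned a wide range. Per kilobase of exon, Kcnk1, Kcng4, Kcnj10 and Kcnd2 were among the highest, at 100.3, 66.2, 63.3 and 55.3 CPM per kilobase. Kcnma1 stood at 6.49 and Kcnk13 at 2.63, well below these. In CPM per kilobase the summed inward rectifier level was 177, 189 and 190.5 for wild-type and 149, 171 and 148 for knock-in libraries, and the summed Kv1 level 101, 108 and 97.8 for wild-type and 81, 87.4 and 71.1 for knock-in libraries. That of the silent subunits, nearly all Kcng4, was 74.8, 91.3 and 79.4 for wild-type and 57.1, 64.5 and 62.6 for knock-in libraries. The two-pore level was 125, 144 and 141 for wild-type and 129, 154 and 142 for knock-in libraries, with overlapping groups, and the BK beta level was 14.6, 18.9 and 17.5 for wild-type and 14.7, 17.3 and 19.1 for knock-in libraries.

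Of the 13 genes under the count minimum, Kcna7, Kcna10, Kcne1, Kcne3, Kcng3, Kcnh4, Kcnj1, Kcnj15, Kcnk7, Kcnk15, Kcnk16, Kcnk18 and Kcnmb3, none had over 21 counts in a library. Just outside the minimum Kcnh4 had 14, 8 and 16 wild-type counts and 7, 3 and 7 knock-in counts. Just inside it Kcnn4, the IK channel, had 12, 10 and 1 wild-type counts and 12, 1 and 10 knock-in counts.

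Some scarce members varied between single libraries as markers of choroid plexus did. Kcne2, a MinK-related subunit of choroid plexus epithelium, had 3.73, 2.98 and 9.92 CPM across wild-type libraries and 1.41, 0.0502 and 7.07 CPM across knock-in libraries. Kcnj13, the Kir7.1 pore of the same epithelium, had wild-type values of 4.88, 4.29 and 9.66 CPM against knock-in values of 1.87, 0.803 and 5.65 CPM. Ttr, the transthyretin gene of that epithelium, had 468, 453 and 1778 CPM across wild-type libraries and 239, 2.59 and 1244 CPM across knock-in libraries. All 3 were highest in wild-type replicate 3 and lowest in knock-in replicate 2. Of 5 choroid plexus markers 0 were called, none was at 0, and their summed level was 492 to 1873 CPM in wild type and 15.8 to 1292 CPM in knock-in. Kcne2 and Kcnj13 had log2 fold changes of -0.97 ± 0.88 and -1.18 ± 0.55 and were not called (adjusted p 0.598 and 0.289). The part of choroid plexus RNA in these levels was not tested.

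The summed level of brainstem markers was high in knock-in replicates 1 and 3, at 69.8 and 41.6 CPM, although Fev, Th and Hoxb5 did not exceed the wild-type range in replicate 3, nor Fev and Hoxb5 in replicate 1. Of 11 listed and 6 tested, 1 was called higher, Slc18a2, the vesicular monoamine transporter, and the summed level was 16.4 to 21.4 CPM in wild type and 13.7 to 69.8 CPM in knock-in. In 5 of the 11, namely Slc6a4, Dbh, Chat, Hoxa5 and Hoxb5, some wild-type library had no count. Kcnc2, a Kv3 pore, had wild-type values of 11.8, 15.9 and 18.6 CPM against knock-in values of 25.7, 8.21 and 18.7 CPM. Kcnh5, an EAG pore, had 1.17, 2.70 and 3.10 CPM across wild-type libraries and 3.76, 0.954 and 2.37 CPM across knock-in libraries. Kcng1, a silent subunit, had wild-type values of 0.123, 0.215 and 0.31 CPM against knock-in values of 0.839, 0.326 and 0.668 CPM. Knock-in replicate 1 was the highest and knock-in replicate 2 the lowest of its group in each of these 3 genes. None of them was called (edgeR adjusted p 0.806, 0.979 and 0.13). In wild type each was highest in replicate 3, where Slc18a2 was lowest (0.41, 1.46 and 0.258 CPM over the wild-type libraries). The deep nuclei marker Slc17a6 had 44.9, 67.5 and 69.9 CPM across wild-type libraries and 100, 38.4 and 68.5 CPM across knock-in libraries. Spp1 of its list had the same highest and lowest knock-in library, and Eomes and Tbr1 did not. The part of brainstem or deep nuclei RNA in the levels of Kcnc2, Kcnh5 and Kcng1 was not tested. A fit with the brainstem level as a covariate, which partly follows genotype, called 4 genes in all and 0 members. The log2 fold changes were then -0.73 for Kcnma1, -0.74 for Kcnk13 and -0.37 for Kcnj10 (adjusted p 0.599, 0.617 and 0.743).

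**Figure D5:**
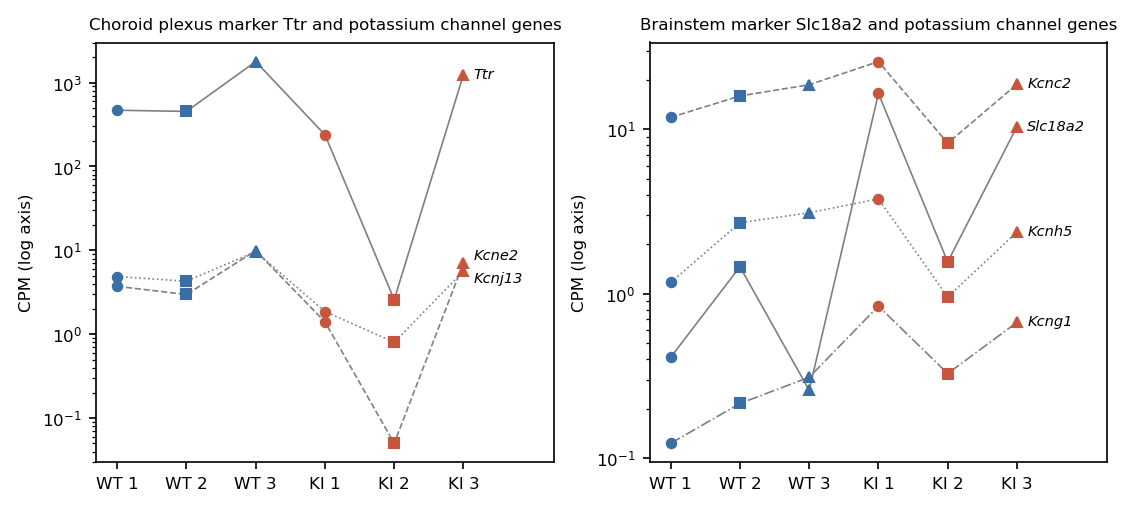
CPM (log axis) in each library for Ttr with Kcne2 and Kcnj13 (left) and for Slc18a2 with Kcnc2, Kcnh5 and Kcng1 (right). Lines join the values of 1 gene and carry no order, blue marks wild type (WT) and red knock-in (KI), and knock-in replicate 2 is the lowest knock-in library for each gene drawn.

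Potassium channels work with partners that do not carry the prefix, and of 41 such genes 39 were tested. In knock-in 2 were lower and 0 higher, or 5.13% lower against 1.28% of all genes tested. One of the 2 was Dlg2, the scaffold PSD-93 that clusters Kv1 and Kir channels. It had 485, 495 and 429.8 CPM across wild-type libraries and 330.3, 385 and 303 CPM across knock-in libraries (log2 fold change -0.47 ± 0.10, adjusted p 0.0466). The median log2 fold change was -0.15, and 15, or 38.5%, were lower and 1 higher at an unadjusted p under 0.05, against 8.26% of all genes lower and 10.5% of those with a mean of at least 10 CPM. The pair of dipeptidyl peptidase-like partners of Kv4, Dpp6 and Dpp10, were at -0.23 ± 0.08 and -0.23 ± 0.08 on the log2 scale (adjusted p 0.158 and 0.15) and not called. Adam23, a partner of the LGI proteins that bind Kv1 complexes, had a log2 fold change of -0.34 ± 0.07 (adjusted p 0.0514), and Abcc8, the sulfonylurea receptor SUR1, one of -0.44 ± 0.10 (adjusted p 0.0568). None of the 4 HCN channel genes was called. The count of called partners was 0 when wild-type replicate 1, 2 or 3 or knock-in replicate 1 or 3 was left out, and 8 without knock-in replicate 2, where 5.04% of all genes were called.

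Other voltage-gated families gave a background for these counts. Of 23 calcium channel subunit genes (Cacn) 1 was lower and 0 higher (Cacnb2, at -0.45 ± 0.09 on the log2 scale), with a median log2 fold change of -0.03. Of 10 sodium channel subunit genes (Scn) 1 was higher and 0 lower (Scn9a, at 2.13 ± 0.41 on the log2 scale), and their median was -0.10. Scn9a was scarce, with 10, 10 and 6 wild-type counts and 51, 25 and 24 knock-in counts. Of all genes tested 1.28% were called lower and 0.629% higher, against 4.35% of the Cacn genes lower. At an unadjusted p under 0.05 in edgeR, 6 Cacn genes (26.1%) were lower and 3 higher, and 3 Scn genes (30%) were lower and 2 higher. Beside these, 25% of the potassium channel members were lower, and of all genes 8.26% were lower and 9.81% higher. By this looser measure the lower share of the members was no higher than that of the Cacn or Scn genes. The families share the libraries, and the difference between them was not tested.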

How the data were processed

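The authors deposited raw counts per Ensembl gene. The submitters' processing notes name HTSeq 0.6.1, TopHat2 2.0.14, Bowtie2 2.1.0, bcl2fastq 2.17.1.14 and build mm10. Libraries were stranded and poly(A)-selected per the labels' protocols. Neither annotation release nor strand setting is given in the sources used here, and 37 of the 81 members overlap a gene on the opposite strand. In 5 of them, Kcnmb1, Kcnrg, Kcnh3, Kcnj13 and Kcnq1, that gene had more counts than the member. Symbols, positions and merged exon lengths were taken from GENCODE M21 (mm10), in which 48349 of 48709 rows were found.

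The whole count table was fitted in edgeR 4.0.16 (R 4.3.3): filterByExpr (minimum count 10, minimum total 15), TMM scaling, a quasi-likelihood F test on genotype and Benjamini-Hochberg adjustment over 16699 genes. Standard errors are the absolute log2 fold change over the square root of F. CPM uses the TMM-scaled library size, and CPM per kilobase divides it by merged exon length. Exact permutation tests are two-sided over samples. Named genes are each called member, the most abundant member and that with the smallest p (if under 0.05 unadjusted) of each subfamily, Kcnma1, Kcna6 and Kcnip4 in any case, and members called by DESeq2 1.42.0 or limma-voom (limma 3.58.1); other genes named were picked with values in view. A few genes are left unnamed and are only counted. The members and lists were chosen with earlier results of these data known. The procedure was run on simulated counts drawn independently for each gene and library. These held no GC, exon length or tissue trend between libraries, so the run cannot show how such trends affect the calls. Replicate pairs of a group differed by more than sampling noise (chi-square per degree of freedom 14.2 to 30.8). Alternatives were the scaling, filter, test, threshold, replicate block, GC and length offsets, a brainstem covariate, the member rule and each sample left out.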

Additional observations from a re-analysis of the deposited data

How the results depend on the processing

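The 7 called members kept their direction in all 18 alternatives run for each gene. Against 7 called members, 318 called genes, 2 called partners and 2 called calcium and sodium channel genes, the counts were 21, 1303, 8 and 10 without a filter on low counts, and 15, 934, 8 and 6 with DESeq2. They were 16, 727, 6 and 7 with GC and length offsets, and 0, 4, 0 and 0 with the brainstem covariate. At an adjusted p of 0.1 there were 12 members, 721 genes and 7 partners. Partners numbered 1 with DESeq2 size factors, 5 with upper quartile scaling, 1 with the filter of 10 counts in 3 samples and 4 with robust estimation. Library size alone gave 513 genes, 190 lower and 323 higher, and 6 members lower and 1 higher (Kcnb2, at 0.67 on the log2 scale). With no filter 608 genes were lower and 695 higher. Other scalings and filters gave 7 to 10 called members. With each sample left out in turn the counts ran over 0 to 15 members, 39 to 858 genes, 0 to 8 partners and 0 to 7 other channel genes, and 29 to 48 members had groups apart (24 with all samples, 48 without knock-in replicate 2). Separation is commoner with fewer samples: of all genes 30% to 42.2% were apart in these fits, 42.2% without knock-in replicate 2, against 59.3% of the members there. The cause of these changes was not tested, except that a sample left out lowers the residual degrees of freedom.

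With the replicate number as a block, 21 members (19 lower, 2 higher, the 7 among them), 2034 genes, 14 partners and 12 other channel genes were called. The labels do not say that the numbers pair the samples. Deviations from the group means of same-numbered samples had Pearson correlations of 0.03, 0.23 and 0.44 over genes. Samples of unlike number had correlations from -0.37 to 0.10. Wild-type replicates 2 and 3 correlated best with the knock-in sample of the same number, and wild-type replicate 1 with knock-in replicate 2 (0.10). These values do not settle whether the samples are paired, and the block was not taken as a pairing. Signs changed in genes that were not called. Kcnmb4 was at -0.00092 with DESeq2 size factors, -0.00097 without a filter, -0.0011 with DESeq2 and between -0.11 and 0.12 with a sample left out. Kcnab2 was at -0.023 with GC and length offsets and between -0.029 and 0.17 with a sample left out, Kcnh1 at 0.012 with the covariate, and Kcnrg between -0.38 and 0.30 with a sample left out. Tested members under 1 CPM had standard errors up to 0.66 on the log2 scale, which limits what the depth can show for them.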
